A study of Mus musculus with 30 samples.

Results

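Runx2, Spib, Irf8, Bcl11a, Zeb2 and Mycl, 6 transcription factor genes known from the development of plasmacytoid dendritic cells, were followed in B cell progenitors of mouse bone marrow. The 6 were chosen by name from the 24459 genes of the RNA count files, and all 6 were found. RNA was sequenced from cells sorted at the pre-pro B stage (B220+ AA4.1+ CD43+ IgM- CD24-) and at the later pre-B stage (B220+ AA4.1+ CD24+ IgM- CD43-) of C57BL/6 mice. The mice differed in Ikzf3, which encodes the zinc finger factor Aiolos: they carried no G158R allele (WT, Ikzf3+/+), a single one (het, Ikzf3+/m) or the allele on both copies (homo, Ikzf3m/m). Each of the 6 groups had 3 libraries, 18 in all. The ages are not in the labels, nor whether the libraries of a group came from separate animals. Sex, read from the counts of Xist against those of Ddx3y, Kdm5d, Eif2s3y and Uty, was XX in all WT libraries. The het and homo groups held XX and XY libraries at each stage, so each of these groups came from more than 1 animal. How many animals a group had is not known. The tests thus measure the spread between these libraries, which may be technical in part or, in WT, in whole. The labels restrict the allele to no cell type. Ikaros (encoded by Ikzf1) and Aiolos were mapped by chromatin immunoprecipitation (ChIP-seq) in cultured pre-B cells and thymocytes of WT and homo mice, with 1 library for each antibody, genotype and cell type.

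Plasmacytoid dendritic cells are the interferon-producing dendritic cells. They arise from lymphoid as well as myeloid progenitors, and they share several transcription factors with the B lineage. The E protein Tcf4 is the master regulator of their fate. Spib, an Ets family factor close to PU.1, Bcl11a, a zinc finger repressor also required for B cell development, and Runx2, a Runt domain factor that supports their exit from the bone marrow, act with or downstream of it. Zeb2 is a zinc finger and homeobox repressor that restrains Id2, the inhibitor of E proteins. Irf8 is an interferon regulatory factor of dendritic and B cells, and Mycl is the Myc paralog of dendritic cells.

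The libraries held between 1888871 (homo pre-B replicate 3) and 9048055 counts in genes. In pre-pro B cells the WT libraries were shallower (5443344 to 6492192) than the homo libraries (8592557 to 9048055), and het replicate 1 was the shallowest, with 4683715. Levels are given in CPM, the usual read count scaled by library size, after TMM normalisation, which corrects for depth and composition but not for gene length, so levels are compared between groups for a gene and not between genes. Log2 differences carry their standard error, and a gene was called at an adjusted p under 0.05 in edgeR's quasi-likelihood test. WT pre-pro B libraries held high levels of the plasmacytoid dendritic markers Siglech (695 ± 58.6 CPM, SD, n = 3) and Ccr9 (578 ± 31.7), of the dendritic gene Itgax (309 ± 3.8) and of Il7r, the interleukin-7 receptor gene (334 ± 16.6). The B lineage gene Pax5 (11.1 ± 2.22 CPM) was low there and reached 207 ± 5.95 CPM in WT pre-B cells. Markers of both lineages were thus present at the earlier stage, and in these bulk libraries fewer cells of a type and less RNA per cell cannot be told apart.

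Between the stages the 6 genes parted into 3 patterns, best seen in WT, where the depth of both stages was alike (5556696 to 6187816 in pre-B cells). Runx2 and Mycl were almost lost in pre-B cells, Irf8 and Bcl11a fell about 4-fold, and Spib and Zeb2 were not called, with Spib within its spread and every Zeb2 library higher in pre-B cells. In WT, 4 of the 6 genes were called lower in pre-B cells, beside 33.3% of the 12440 genes tested, and none was called higher, beside 31.0%. The median difference of the 6 was −2.01 on the log2 scale, against −0.01 over all genes tested.

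Runx2 had 1219, 1161 and 1092 CPM in the 3 WT pre-pro B libraries and 1.28, 0.179 and 0.967 CPM in the WT pre-B libraries. In counts, 20476 reads in the 3 pre-pro B libraries stood against 15 in the 3 pre-B libraries. The stages did not come near each other, and the pre-B level rested on 1 to 8 counts per library. The fitted difference was −10.41 ± 0.29 on the log2 scale (adjusted p = 3.73e-15), and the ratio of pooled counts was 1387 (95% counting interval 841 to 2479). The loss was seen in each genotype. In het the pooled ratio was 3590 (1538 to 11057) from 5 pre-B counts, and in homo it was 934 (556 to 1708) from 14 pre-B counts. These intervals cover counting error only, and those of WT and het overlap, as do those of WT and homo. Supt3, a gene that overlaps Runx2 in the annotation and so may share reads with it, fell too, from 25.5 ± 1.81 to 9.7 ± 0.202 CPM in WT (log2 −1.39 ± 0.16, adjusted p = 6.23e-07).

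Mycl had 313, 295 and 280 CPM in WT pre-pro B cells and 1.12, 1.79 and 2.09 in WT pre-B cells, from 7, 10 and 13 counts. Like Runx2, it was close to absent at the later stage. The fitted difference was −7.46 ± 0.18 (adjusted p = 8.19e-16), with a pooled ratio of 178 (124 to 263). In het pre-B cells the libraries held 5, 0 and 2 Mycl counts and in homo 3, 5 and 1. The pooled ratios were 650 (315 to 1618) in het and 404 (213 to 883) in homo, so the WT interval did not overlap that of het and did overlap that of homo. The het effect on Mycl differed between the stages by −1.84 ± 0.47 on the log2 scale (adjusted p = 0.0263), the single member of 6 called lower for this difference, beside 3.80% of all genes. That call rests on 30 WT against 7 het counts in pre-B cells and was lost without WT pre-B replicate 2 (adjusted p = 0.0704) or 3 (0.106) or het pre-B replicate 2 (0.0983) or 3 (0.0864).

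**Figure D1:**
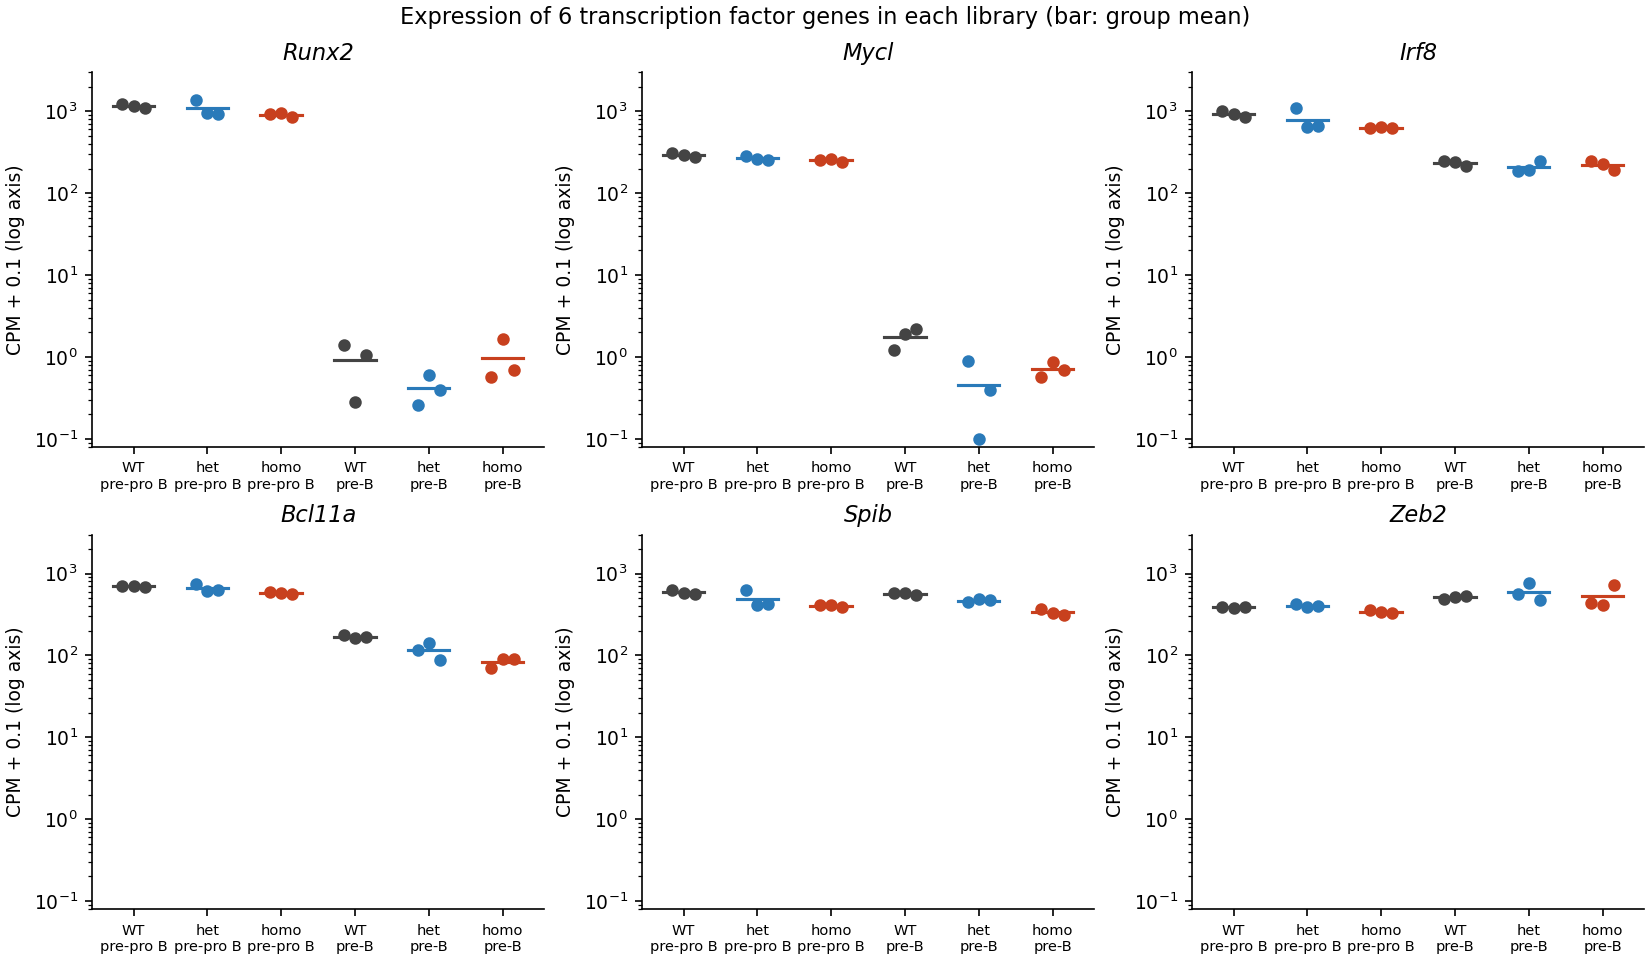
Level of each of the 6 genes in the 18 libraries (points), in CPM plus 0.1 on a log axis, with a bar at the mean of each group of 3. Runx2 and Mycl sit above 200 CPM in pre-pro B cells and near or below 2 CPM in pre-B cells, Irf8 and Bcl11a drop by less, and Spib and Zeb2 keep their order of magnitude.

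Of the 6 loci, Runx2 carried the largest number of Ikaros regions in cultured pre-B cells, where its RNA was near absent in the sorted pre-B libraries. Runx2 is also the longest of the 6 genes, 318811 bases on the minus strand of chromosome 17 (44495987 to 44814797, mm10), so its length alone gives it more room for regions. The deposited WT list placed 5 Ikaros regions within it and the homo list 7. A region over the gene's start, chr17:44814659-44815108 in WT, had a fold of 7.2 over background and a −log10 q of 16.28. The homo list held chr17:44814641-44815203 at the same place, with a fold of 11.26 and a −log10 q of 35.54. The region with the highest fold within Runx2 lay 314.7 kb downstream of the start, near the end of the gene, in both lists (fold 9.03 in WT and 11.67 in homo). Folds are the authors' own, and the homo list was longer (8609 against 3683 regions), so the paired values cannot show a change in binding.

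A window of 300 bases at a start site of Runx2 is shown because both Ikaros lists of cultured pre-B cells overlap it. The Mycl window is shown because its RNA resembles that of Runx2 across the stages, and the Spib window because its RNA differs. Each window runs from 250 bases before to 50 after the start site used in the RefSeq promoter table of GRCm38.p6, on the gene's own strand, 5′ to 3′: Runx2 at chr17:44814578-44814877 (minus strand), Mycl at chr4:122995681-122995980 (plus strand) and Spib at chr7:44532022-44532321 (minus strand). These start sites lie 170 (Runx2), 343 (Mycl) and 16 bases (Spib) downstream of the outermost annotated start of the gene, which gives the gene coordinates and distances in this text, and the Mycl window does not reach that outermost start. Capitals mark GGGAA on either strand, the core letters of sites that Ikaros family zinc fingers recognise.
Runx2: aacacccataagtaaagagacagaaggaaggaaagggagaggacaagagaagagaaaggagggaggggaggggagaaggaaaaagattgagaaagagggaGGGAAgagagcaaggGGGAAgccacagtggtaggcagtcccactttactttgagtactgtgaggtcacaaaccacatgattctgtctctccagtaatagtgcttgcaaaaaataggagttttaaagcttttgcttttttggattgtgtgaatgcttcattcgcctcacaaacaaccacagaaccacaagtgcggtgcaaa
Mycl: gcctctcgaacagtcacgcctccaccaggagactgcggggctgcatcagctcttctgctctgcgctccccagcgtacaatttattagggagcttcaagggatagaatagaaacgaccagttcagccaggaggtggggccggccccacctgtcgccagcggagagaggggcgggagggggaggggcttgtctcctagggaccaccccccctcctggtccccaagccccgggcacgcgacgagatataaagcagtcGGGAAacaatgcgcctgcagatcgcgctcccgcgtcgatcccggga
Spib: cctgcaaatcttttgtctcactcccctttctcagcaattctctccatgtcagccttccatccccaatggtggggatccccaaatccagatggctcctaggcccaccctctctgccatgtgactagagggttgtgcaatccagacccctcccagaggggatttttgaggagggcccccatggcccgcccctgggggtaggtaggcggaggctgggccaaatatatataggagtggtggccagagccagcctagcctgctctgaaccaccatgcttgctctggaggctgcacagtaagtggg
The Runx2 window held 2 matches, the Mycl window 1 and the Spib window none. Such matches are common: 62.7% of 32851 RefSeq windows of the same length hold at least 1 and 27.1% hold at least as many as Runx2. Over the 10 windows listed for the 6 genes, 9 held GGGAA, and 4 held the longer TGGGAA, which 25.6% of all windows hold. A match is a description of the letters and not of a bound site.

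The other loci held fewer regions. Zeb2 (chromosome 2, 44983512 to 45117442, minus strand) had 2 Ikaros regions in the WT pre-B list, 5.5 and 9.5 kb downstream of its start, and the second had a fold of 8.15 in WT and 10.49 in homo. The homo list also held a region 83.4 kb downstream (fold 5.18). Spib (chromosome 7, 44525995 to 44532087, minus strand), Irf8 (chromosome 8, 120736358 to 120756694, plus strand), Bcl11a (chromosome 11, 24076564 to 24173558, plus strand) and Mycl (chromosome 4, 122995588 to 123002490, plus strand) had none in that list within 10 kb. In the homo pre-B list Spib held a region 0.6 kb downstream of its start (fold 4.54), Bcl11a 1.1 kb downstream (3.89) and Mycl 13.9 kb downstream, beyond its end (3.69). So 2 of the 6 genes had an Ikaros region in the WT pre-B list, beside 11.8% of 19685 genes, and 5 in the homo pre-B list, beside 25.0%. In thymocytes the counts were 3 genes in WT (beside 12.3%) and 5 in homo (beside 31.9%). The thymocyte regions in Runx2 lay 160.1 kb downstream of the start in both lists, 177.0 kb in WT and 78.6 kb in homo, and none lay at the start. The homo thymocyte region at Mycl overlapped the Mycl window (fold 4.23), and regions of both thymocyte lists overlapped the annotated start of Bcl11a (fold 6.0 in WT and 3.19 in homo).

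No Aiolos region lay at any of the 6 genes in the 4 Aiolos lists, which were short: 431 and 24 regions in WT and homo pre-B cells and 25 and 184 in WT and homo thymocytes. Of all genes, 0.980%, 0.0508%, 0.0559% and 0.503% had a region in these lists, in that order, so an empty locus says little about the 6 genes. Ikaros and Aiolos were not mapped in pre-pro B cells.

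**Figure D2:**
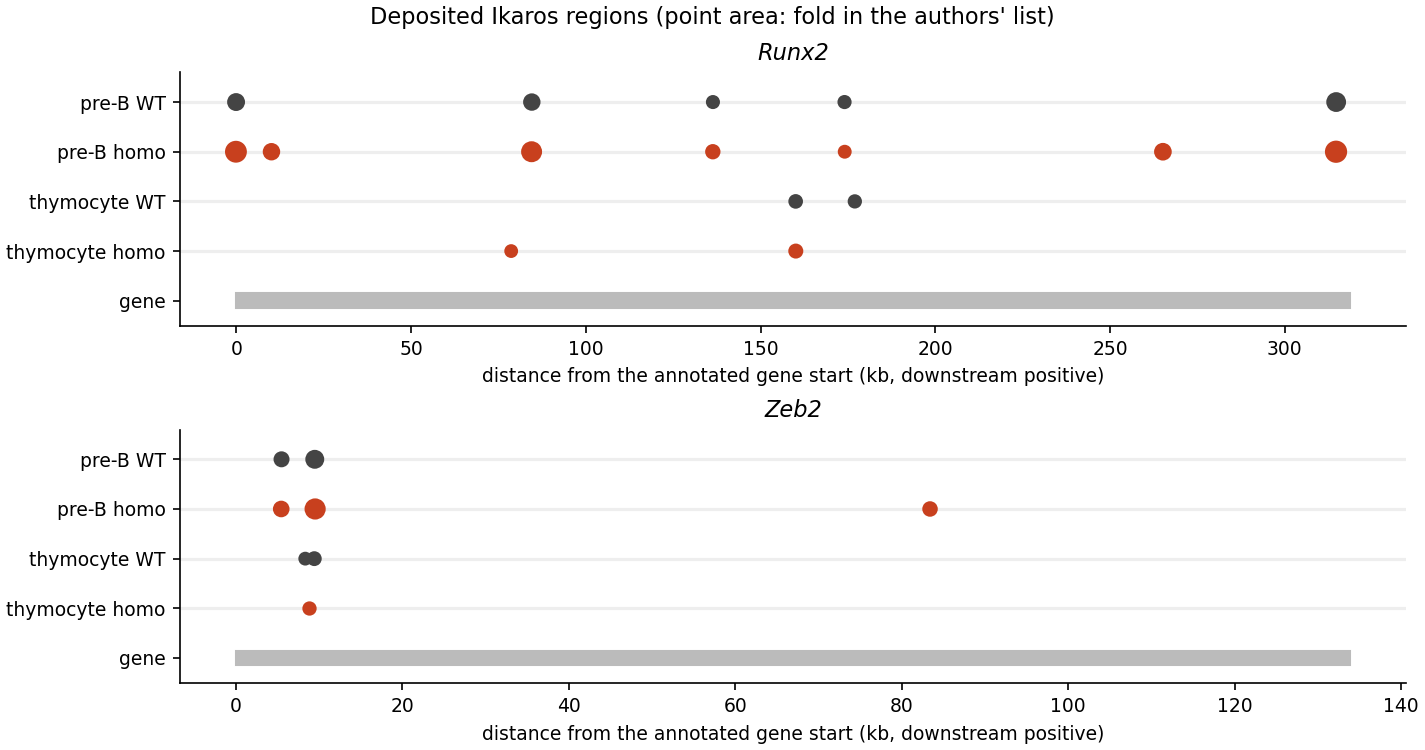
Ikaros regions of the 4 deposited lists along Runx2 and Zeb2, by distance of the region's centre from the annotated gene start in kb, with point area in proportion to the authors' fold and a grey bar for the gene. Cultured pre-B cells have a region at the Runx2 start in both genotypes and thymocytes have none there, while the Zeb2 regions lie within 10 kb of its start apart from 1 homo pre-B region at 83.4 kb.

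Irf8 and Bcl11a fell between the stages without being lost. Irf8 had 1001, 924 and 855 CPM in WT pre-pro B and 249, 243 and 216 in WT pre-B cells, a fall of 3.92-fold (log2 −1.97 ± 0.17, adjusted p = 1.96e-08). The stage fall of Irf8 was −1.93 ± 0.18 in het and −1.49 ± 0.17 in homo (adjusted p = 2.70e-08 and 6.98e-07). Bcl11a had 710, 714 and 688 CPM in WT pre-pro B and 177, 165 and 169 in WT pre-B cells, a fall of 4.14-fold (log2 −2.05 ± 0.14, adjusted p = 5.54e-10). For both genes the stages did not overlap in any genotype. The stage fall of Bcl11a was −2.51 ± 0.14 in het and −2.80 ± 0.15 in homo (adjusted p = 4.70e-11 and 1.81e-11).

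Spib and Zeb2 were kept in pre-B cells. Spib had 633, 583 and 561 CPM in WT pre-pro B and 574, 581 and 545 in WT pre-B cells, and the groups overlapped (log2 −0.06 ± 0.12, adjusted p = 0.669). Its stage difference was not called in het (−0.06, adjusted p = 0.654) or homo (−0.26 ± 0.12, 0.0678). Raw Spib counts were 3370 to 3603 in WT pre-pro B and 3242 to 3593 in WT pre-B libraries. They followed depth weakly in pre-pro B cells, as described below, and whether this narrowed a stage difference was not tested. Zeb2 had 389, 382 and 390 CPM in WT pre-pro B and 487, 518 and 526 in WT pre-B cells, so each pre-B library was above each pre-pro B library. The difference of 0.40 ± 0.17 missed the threshold in WT (adjusted p = 0.0527) and was called in het (0.56 ± 0.17, 0.00814) and homo (0.60 ± 0.17, 0.00541). In homo it was 0.11 (adjusted p = 0.403) with library size as a covariate, and in het 0.36 (0.0685) without pre-B replicate 2. With these calls, 1 of the 6 genes was higher in het and in homo pre-B cells (beside 32.4% and 32.7% of genes), and the same 4 as in WT were lower (beside 35.8% and 36.4%).

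The genes around the 6 changed in both directions between the WT stages. Among 14 tested of 15 other transcription factors of plasmacytoid dendritic cell development, 7 were called higher and 6 lower in pre-B cells, with a median difference of 0.03. Tcf4 fell from 1206 ± 76.7 to 309 ± 12.1 CPM (log2 −1.97 ± 0.15, adjusted p = 3.08e-09). Irf7, which drives interferon genes, fell from 298 ± 15.2 to 15.9 ± 2.32 CPM (log2 −4.23 ± 0.29, adjusted p = 5.41e-10). Id2 did not pass the test (11.5 ± 1.1 and 9.58 ± 0.292 CPM, adjusted p = 0.346). All 20 plasmacytoid dendritic surface and effector genes were called lower, with a median of −6.52, among them Siglech, which fell to 0.327 ± 0.15 CPM (log2 −10.95 ± 0.31, adjusted p = 4.28e-15). Differences in that list ran from Unc93b1 (log2 −0.46, adjusted p = 0.00485) to Lag3 (−11.89, adjusted p = 2.73e-13), both chosen after their values were seen. The fall was not particular to that list. Called lower were 7 of 9 tested conventional dendritic markers (median −8.41) and 9 of 11 NK markers (−5.75). So were 4 of 8 myeloid (−3.81, with 1 higher) and 4 of 5 T lineage markers (−3.06). Of 11 B lineage markers, 9 were called higher and none lower (2.67).

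Paralogs of several of the 6 rose. Of 12 tested paralogs and partners, 8 were called higher and 2 lower in WT pre-B cells. Runx1 rose from 144 ± 5.75 to 238 ± 10.3 CPM (log2 0.72 ± 0.10, adjusted p = 4.15e-06) where Runx2 was lost. Irf4, the interferon regulatory factor of later B cells, rose from 77.3 ± 2.84 to 664 ± 18 CPM (log2 3.10 ± 0.16, adjusted p = 1.24e-11) where Irf8 fell. Myc rose from 14.4 ± 4.1 to 31.5 ± 6.8 CPM (log2 1.13 ± 0.30, adjusted p = 0.0031) where Mycl was lost. Zeb1 rose from 72.2 ± 2.87 to 99.9 ± 3.32 CPM (log2 0.47 ± 0.13, adjusted p = 0.00363). Spi1, which encodes PU.1, stood at 71.4 ± 0.727 and 89.1 ± 3.01 CPM (log2 0.32 ± 0.13, adjusted p = 0.0451), a call kept in 3 of 12 alternatives. Bcl11b, known from T cells, was below the count filter in both stages.

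In pre-B cells, Spib and Bcl11a were lower in homo than in WT, and Irf8 and Zeb2 were not called. These 2 of the 4 genes tested were called lower, beside 8.45% of the 11411 genes tested in pre-B cells, and none was called higher, beside 7.42%. Runx2 and Mycl were too low to test. The median of the 4 was −0.41 against 0.02 over all genes.

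Spib had 574, 581 and 545 CPM in WT pre-B cells, 444, 488 and 473 in het and 367, 329 and 316 in homo. Every homo library was below every het library, and every het library was below every WT library. Complete separation of this kind, homo below WT, was seen in 22.3% of genes, and het below WT in 16.2%. The fall from WT to homo was −0.75 ± 0.11 on the log2 scale, 1.68-fold (adjusted p = 0.00117). The steps between neighbours in this order did not pass: het against WT was −0.28 ± 0.11 (adjusted p = 0.178) and homo against het −0.46 ± 0.11 (0.0639).

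Bcl11a had 177, 165 and 169 CPM in WT pre-B cells, 118, 143 and 88.2 in het and 70.1, 90.9 and 90.2 in homo. Each mutant library was below each WT library, and het and homo overlapped. The fall from WT to homo was −1.03 ± 0.17, 2.04-fold (adjusted p = 0.00297). Het against WT was −0.56 ± 0.17 (adjusted p = 0.0904) and homo against het −0.47 ± 0.17 (0.269), neither called. None of the 4 genes was called between het and WT, beside 6.18% of all genes, or between homo and het, beside 1.89%, although the unadjusted p for Bcl11a against WT was 0.00783 and for Spib 0.0243. DESeq2 called both in het (adjusted p = 0.0386 for Bcl11a and 0.0172 for Spib).

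Both homo calls held in all 15 alternatives, with log2 differences from −0.81 to −0.70 for Spib and from −1.12 to −0.91 for Bcl11a, and the largest adjusted p was 0.0109 and 0.016. By their counts, homo replicates 1 and 3 and het replicate 2 were XY. Homo replicate 2, het replicates 1 and 3 and all WT pre-B libraries were XX. With a term for sex the falls were −0.79 (adjusted p = 0.00258) and −1.12 (0.00568). Without the 2 shallowest pre-B libraries, homo replicate 3 and het replicate 2, which leaves WT and homo within 5556696 to 6257527 counts, they were −0.71 (adjusted p = 6.19e-06) and −1.08 (7.02e-05). Markers of other cells also moved in pre-B cells. The summed level of 11 NK cell markers lay between 3.04 and 4.12 CPM in the WT libraries, where 5 of the 11 were at 0. It lay between 8.88 and 13.1 for het and between 24.9 and 29.4 for homo. Of the 11 NK markers, 2 passed the count filter, and both were called higher in homo. Most of the homo sum came from Klrb1c (10.1 ± 1.4 CPM, and 1.79 ± 0.454 in WT) and Prf1 (10.9 ± 2.99, and 0.632 ± 0.539 in WT). Nkg7 (0.305 ± 0.257 CPM) and Eomes (0.207 ± 0.235) were near absent in homo, and Tbx21 was at 0. The sum of 10 myeloid markers was 55.6 to 57.7, 84.2 to 93.7 and 116 to 152 CPM, most of it from Itgam (52.5 ± 2.07, 87.8 ± 5.51 and 122 ± 21.7 CPM). Itgam was the single gene called of the 2 tested in that list (log2 1.23 ± 0.13, adjusted p = 0.000227), while Csf1r was 1.49 ± 0.516 CPM in WT and 1.58 ± 0.806 in homo and Ctsg was at 0 in every pre-B library. Whether NK or myeloid cells were present, and their part in the falls of Spib and Bcl11a, was not tested.

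The pre-B level of Irf8 averaged 236 ± 17.4 CPM (WT), 207 ± 34.1 (het) and 222 ± 28.4 (homo), with overlap of all 3 groups (homo against WT −0.08 ± 0.14, adjusted p = 0.748). Zeb2 was 510 ± 20.5, 600 ± 147 and 525 ± 170 CPM, with the wide spread coming from the shallowest libraries, het replicate 2 (763) and homo replicate 3 (721). Its difference was 0.04 ± 0.23 (adjusted p = 0.934) and changed sign without homo replicate 3, to −0.26 (adjusted p = 0.34). It was −0.26 and called lower (adjusted p = 0.016) without both of these libraries. Zeb2os, the antisense transcript that overlaps Zeb2, fell 2.0-fold in homo, from 18.8 ± 2.5 to 9.79 ± 1.93 CPM (adjusted p = 0.00517). The labels give no strand setting for the counting, so reads of the antisense pair may not be told apart. Runx2 had 15, 5 and 14 counts in all in WT, het and homo pre-B cells, and Mycl had 30, 7 and 9.

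**Figure D3:**
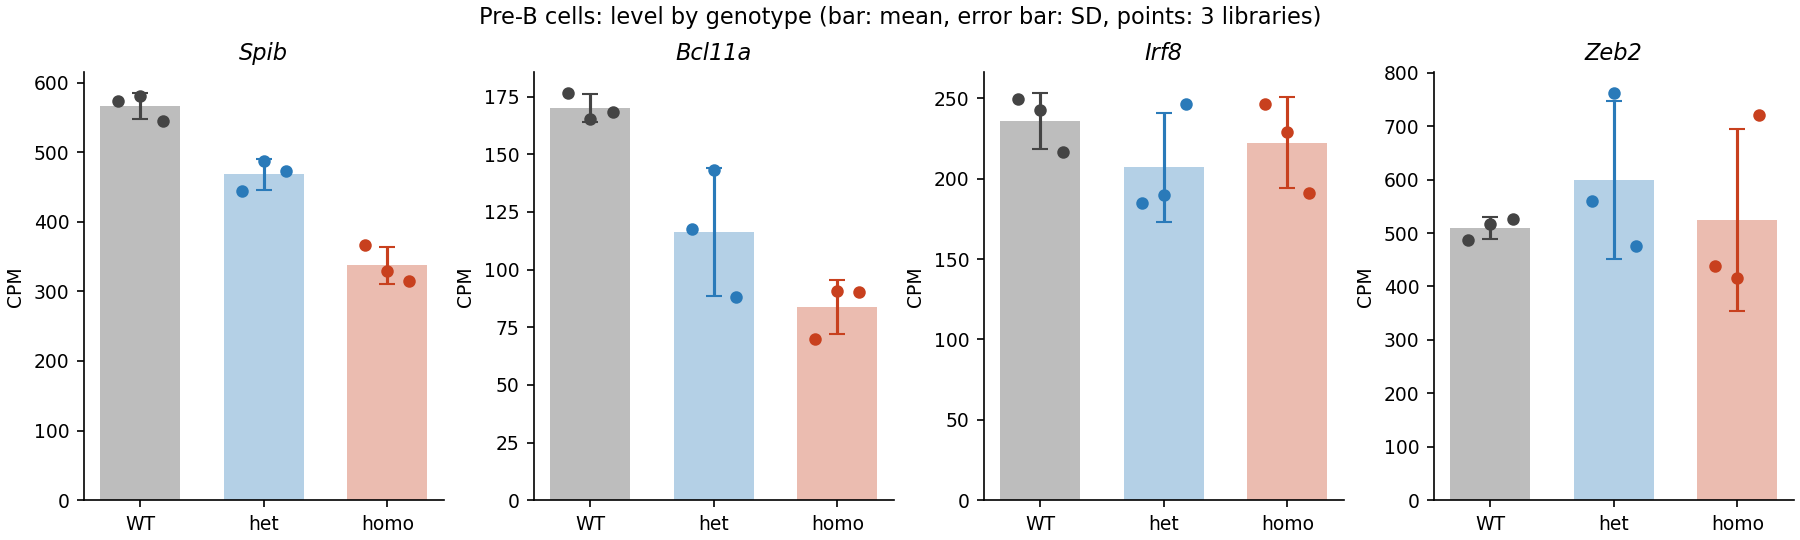
CPM of the 4 tested genes in pre-B cells by genotype, with bars at the mean, error bars of 1 SD and points for the 3 libraries of a group. Spib steps down from 567 to 468 to 337 CPM and Bcl11a from 170 to 116 to 83.7 CPM, while the groups overlap for Irf8 and Zeb2.

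The fall of Bcl11a in homo was larger in pre-B than in pre-pro B cells. The difference of the homo effect between the stages was −0.75 ± 0.20 on the log2 scale (adjusted p = 0.0142), and it was called in all 18 alternatives. Bcl11a was the single member of the 6 called lower for this difference, beside 9.37% of all genes. For Spib the difference was −0.20 ± 0.17 (adjusted p = 0.501), so its homo effect was not shown to differ between the stages.

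Among the surrounding genes in pre-B cells, homo against WT, 1 of 14 tested other transcription factors was called higher and 2 lower, with a median of −0.06. Tcf4 was 309 ± 12.1 CPM in WT and 407 ± 80.6 in homo and was not called (log2 0.40 ± 0.15, adjusted p = 0.117). The 3 called genes were chosen after their values were seen. Cbfa2t3, which encodes the ETO family corepressor that binds Tcf4, fell from 348 ± 10.6 to 154 ± 29.4 CPM (log2 −1.16 ± 0.14, adjusted p = 0.000355). Id3, an inhibitor of E proteins, fell from 37.9 ± 6.99 to 9.24 ± 3.94 CPM (log2 −1.92 ± 0.29, adjusted p = 0.00166). Xbp1, the secretory pathway factor, rose from 79.9 ± 2.8 to 121 ± 5.44 CPM (log2 0.60 ± 0.09, adjusted p = 0.00175). Of the paralogs and partners, 2 of 12 rose and none fell. Zeb1 rose from 99.9 ± 3.32 to 179 ± 29.3 CPM (log2 0.83 ± 0.15, adjusted p = 0.0048) and Runx1 from 238 ± 10.3 to 319 ± 17.1 CPM (log2 0.42 ± 0.10, adjusted p = 0.0144), the latter a call kept in 10 of 15 alternatives. Of 15 tested surface and effector genes, 3 fell and 1 rose. The endosomal receptor gene Tlr9, also chosen after its values were seen, had 85.5, 75.6 and 80.6 CPM (WT), 61.1, 56.2 and 35 (het) and 20.3, 15 and 3.61 (homo; log2 −2.46 ± 0.36, adjusted p = 0.00127).

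In pre-pro B cells all 6 genes were lower in homo than in WT by small amounts, and the homo libraries were also deeper. Each homo library was below each WT library for all 6 genes, as for 21.8% of the 12188 genes tested. Spib had 633, 583 and 561 CPM in WT and 413, 410 and 393 in homo (log2 −0.56 ± 0.14, adjusted p = 0.018). Bcl11a had 710, 714 and 688 CPM against 593, 579 and 562 (−0.30 ± 0.08, adjusted p = 0.023). Mycl had 313, 295 and 280 CPM against 252, 264 and 238 (−0.25 ± 0.06, adjusted p = 0.0167). Zeb2 had 389, 382 and 390 CPM against 358, 339 and 333 (−0.18 ± 0.05, adjusted p = 0.0298). These 4 were called lower, beside 10.4% of all genes. Runx2, with 1219, 1161 and 1092 CPM in WT and 917, 948 and 850 in homo, was not called (−0.37 ± 0.14, adjusted p = 0.0755), nor was Irf8, with 1001, 924 and 855 against 620, 642 and 628 (−0.57 ± 0.18, adjusted p = 0.0521).

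None of the 4 calls was left with library size as a covariate, when the Runx2 difference was 0.00 (log2) and the others were between −0.19 (Spib) and −0.07 (Irf8), or with a term for sex. None was left without WT replicate 1, WT replicate 2 or homo replicate 3, and 1 was left without homo replicate 2 and 2 without WT replicate 3. The shares of all genes called in these fits are not given here. The raw counts of some genes hardly followed depth. Irf8 had between 4968 and 5769 counts in all 9 pre-pro B libraries, while their totals ran from 4683715 to 9048055. Actb, a gene of the cytoskeleton present in all cells, had 2335 to 2650.

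The 3 het libraries give the same comparison within a genotype. Replicate 1 had 4683715 gene counts, and replicates 2 and 3 had on average 1.83 times as many, with a median rise of 1.96 times over 10496 genes. The counts of the 6 genes rose by less: 1.14 times for Irf8, 1.30 for Runx2, 1.30 for Spib, 1.60 for Bcl11a, 1.75 for Mycl and 1.79 for Zeb2. In CPM the deeper het libraries were thus lower than het replicate 1, by −0.75 on the log2 scale for Irf8, −0.56 for Runx2, −0.56 for Spib, −0.26 for Bcl11a, −0.13 for Mycl and −0.09 for Zeb2. For Runx2, Irf8 and Spib this difference within het was at least as large as that between homo and WT. Het replicates 2 and 3 matched the homo libraries in depth. Against those 2 alone, homo differed by −0.06 for Runx2, −0.06 for Spib, −0.03 for Irf8, −0.10 for Bcl11a and −0.03 for Mycl, and by −0.21 for Zeb2 (adjusted p = 0.14). Depth and the homo genotype cannot be told apart in these WT and homo pre-pro B libraries. Sex was unbalanced too: all WT pre-pro B libraries were XX, while homo replicates 1 and 3 were XY and replicate 2 was XX. Het replicate 2 was XY and het replicates 1 and 3 were XX, so the comparison within het was not of depth alone.

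**Figure D4:**
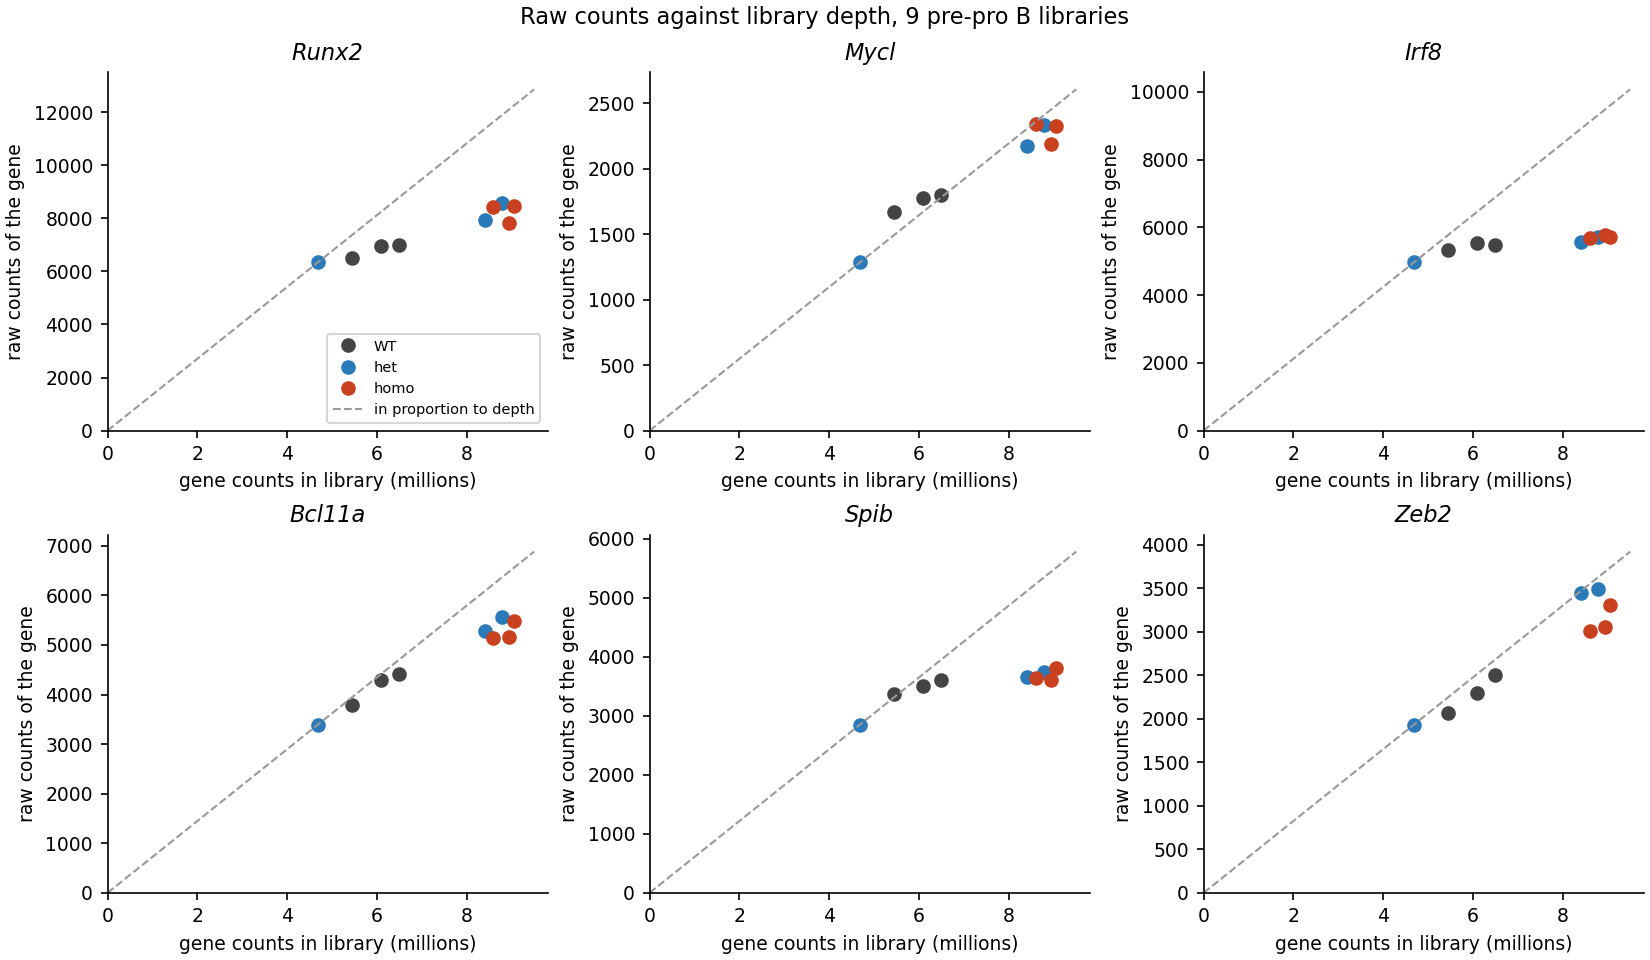
Raw counts of the 6 genes against the total gene counts of each of the 9 pre-pro B libraries, coloured by genotype, with a dashed line in proportion to depth through het replicate 1. Irf8, Spib and Runx2 flatten with depth, while Mycl and Zeb2 stay closer to the line.

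**Figure D5:**
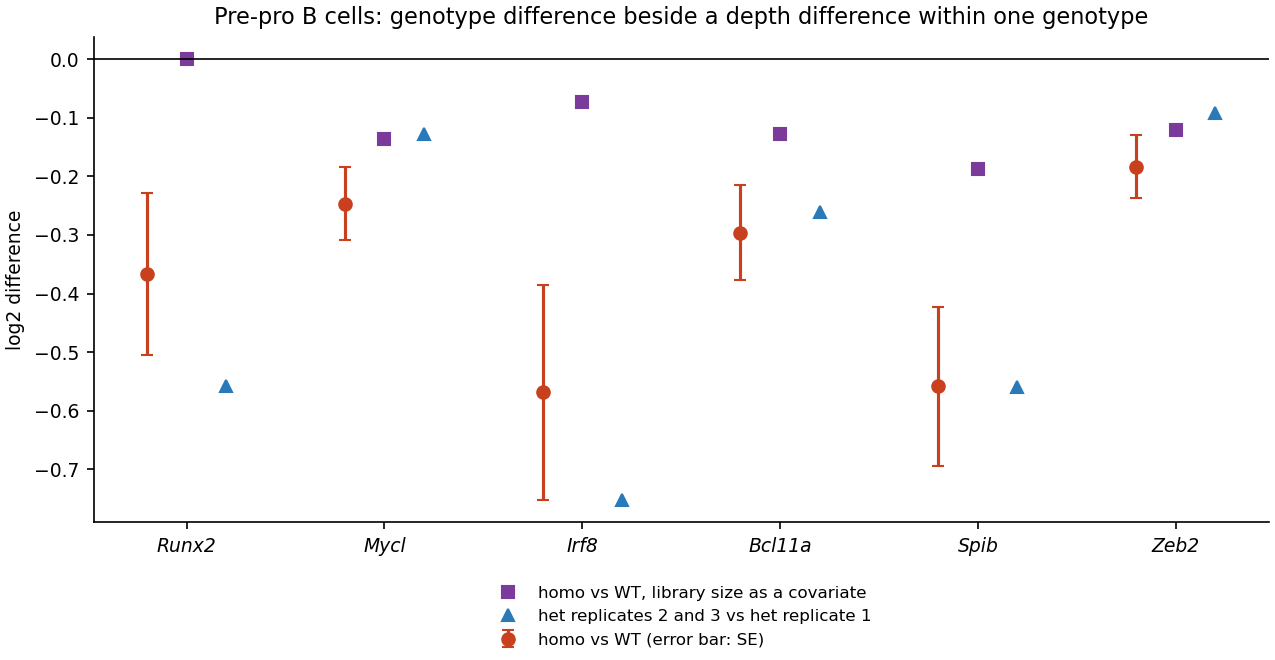
Log2 difference in pre-pro B cells for homo against WT (circles, error bar of 1 SE), the same with library size as a covariate (squares), and the deeper het replicates 2 and 3 against the shallower het replicate 1 (triangles). For Irf8 the circle is at −0.57, the triangle at −0.75 and the square at −0.07.

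Het and WT pre-pro B cells gave no call among the 6 genes, beside 0.558% of all genes, with differences from −0.29 ± 0.14 (Spib, adjusted p = 0.268) to 0.06 ± 0.05 (Zeb2, 0.586). Of the 6, Mycl had an unadjusted p under 0.05 (0.0185). Without het replicate 1, which leaves het libraries deeper than WT, 5 of the 6 were called lower, all but Zeb2. The share of all genes called in that fit is not given here, so this count is not a result about the 6 genes in particular. Homo and het also gave no call, beside 0.0164% of all genes. The WT libraries are shared by the het and homo comparisons, so their values are not independent.

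Other dendritic genes were also called in homo pre-pro B cells. Of 20 plasmacytoid dendritic surface and effector genes, 11 were called lower and none higher, with a median of −0.47 against 0.01 over all genes. Of 9 tested conventional dendritic markers, 1 was called higher and 3 lower, with a median of −0.23. The level of Siglech averaged 695 ± 58.6 CPM (WT), 603 ± 185 (het) and 479 ± 6.98 (homo; log2 −0.55 ± 0.18, adjusted p = 0.055), and its counts in the deeper het libraries were 1.16 times those of het replicate 1. Among 14 other transcription factors, 2 rose and 4 fell. Irf7 fell by 0.81 ± 0.19 on the log2 scale, from 298 ± 15.2 to 171 ± 10.6 CPM (adjusted p = 0.0207). With library size as a covariate its difference was −0.41 (0.174). Tcf4 was not called (1206 ± 76.7 and 949 ± 28.4 CPM, adjusted p = 0.0631). Id2, the inhibitor of E proteins, went the other way, from 11.5 ± 1.1 to 30.2 ± 7.41 CPM (log2 1.38 ± 0.21, adjusted p = 0.00308). It was called in 13 of 14 alternatives, and with library size as a covariate it was 1.11 (0.0706). In het against WT, Id2 was also called higher (log2 1.18 ± 0.21, adjusted p = 0.0451), where Zeb2 was not called (0.06 ± 0.05, 0.586). A link between Zeb2 and Id2 was not tested.

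Paralogs and partners gave 4 higher and 1 lower of 12. Runx1 rose from 144 ± 5.75 to 197 ± 5.2 CPM (log2 0.44 ± 0.10, adjusted p = 0.0109), Zeb1 from 72.2 ± 2.87 to 85.8 ± 3.59 (0.24 ± 0.07, 0.0353) and Myc from 14.4 ± 4.1 to 33.2 ± 12.3 (1.20 ± 0.31, 0.0286), each lost with library size as a covariate. Over 14 alternatives the call was kept in 12 for Runx1, 8 for Myc and 4 for Zeb1. The summed NK cell markers lay between 121 and 130 CPM for WT, 215 and 335 for het and 284 and 467 for homo, and 10 of the 11 were called higher in homo. The summed myeloid markers were 95.9 to 103 CPM in WT and 205 to 274 in homo, with 6 of 8 tested genes higher. NK cells express Id2 and Runx genes too, and the part of these cells in the changes of the 6 genes was not tested.

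The genes whose levels over the 6 groups were most like those of each factor were found by the root mean square of the log2 differences, each gene centred on its own mean, among 10296 genes. For Runx2 they were Ptprf (0.16), Ddr1 (0.27) and Adam11 (0.31), which were between 301 and 647 CPM at the pre-pro B stage and below 1 CPM at the pre-B stage. For Mycl they included Plaur (0.18) and Zc3h12c (0.26). The genes named for Runx2 and Mycl were all further from their factor than the nearest genes of the other 4 factors. Those were Ndufa3, Nav2 and Jrk for Spib (0.09 to 0.10), Syngr2, Mtus2 and Map7d1 for Irf8 (0.07 to 0.10), Agtrap, Pisd-ps1 and Them6 for Bcl11a (0.08 to 0.10), and Erdr1, Arhgap24 and Ube2d1 for Zeb2 (0.03 to 0.05). In pre-pro B cells Agtrap stood at 174 ± 8.13 (WT), 170 ± 7.03 (het) and 164 ± 4.41 CPM (homo). Its pre-B levels were 43.7 ± 0.556, 27.3 ± 5.93 and 20.8 ± 7.6 CPM, the same order as those of Bcl11a. With 6 group means per gene, many patterns of this kind are alike, and likeness is a description.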

How the data were processed

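The authors deposited raw read counts per gene symbol for each of the 18 RNA libraries, made per the labels' protocols with poly(A) selection and the NEBNext Ultra kit. Per the submitters' processing notes, STAR 2.7.0, HISAT2 2.1.0, MACS2 2.1.1 and mm10 were used, with no role given for each. The counter, its strand setting and any removal of duplicate reads are not given in the sources used here. Neither library sizes nor tests include the 5 entries that name no gene; per library, 29.8% to 40.1% of reads fell in no gene and 0.73% to 0.882% were ambiguous. Each deposited peak list (8, 1 per ChIP library, broad peaks per the file type) gives per region the authors' own score, fold over background and −log10 of a p-value and of a q-value; the control and thresholds are not in the labels.

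Differences were tested with edgeR 4.0.16 in R 4.3.3 (filterByExpr, TMM, robust quasi-likelihood F test, two-sided, Benjamini-Hochberg over all genes tested, called at 0.05). Genotypes were compared within a stage over its 9 libraries, and stages and interactions over all 18. Biological coefficients of variation were 8.13%, 16.3% and 12.4% in the pre-pro B, pre-B and joint fits. Alternatives were DESeq2 1.42.0 and its size factors, no filter or a stricter one, a replicate block, a library size or sex term, a joint fit and leaving out libraries; the pre-B sex term and the fit without the 2 shallowest pre-B libraries were added after seeing the data. The edgeR step was tested on simulated data. A region was assigned to a gene within 10 kb. Gene positions and promoter windows were matched by symbol (all 6) to RefSeq tables of GRCm38.p6, the mm10 assembly. Pooled ratios carry exact 95% counting intervals.

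The 6 genes and the gene lists were chosen with earlier results of these data known. The genes named were the 6 factors, Tcf4, Id2, Irf7, Spi1, the nearest paralogs, Siglech and the 3 genes most like each factor. The last were taken among those with at least 10 CPM in a group. Genes named as stage or lineage markers came from the marker lists, and others are said to be chosen after their values were seen. Supt3 and Zeb2os, which overlap Runx2 and Zeb2 in the annotation, and Actb were named outside these rules. Some genes that these rules name are not reported here.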

Additional observations from a re-analysis of the deposited data

Results flagged for a closer look

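The effect of the homo genotype on Bcl11a differed between the stages by −0.75 ± 0.20 on the log2 scale (interaction in edgeR's quasi-likelihood test, adjusted p = 0.0142, 3 libraries per group). Bcl11a was 704 ± 14 CPM in WT and 578 ± 15.9 in homo pre-pro B cells, and 170 ± 5.97 and 83.7 ± 11.8 in pre-B cells. Over 18 alternatives the difference ran from −0.96 to −0.63 and the adjusted p from 0.000802 to 0.0429.

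The effect of the het genotype on Mycl differed between the stages by −1.84 ± 0.47 (same test, adjusted p = 0.0263). Mycl was 296 ± 16.4 CPM in WT and 265 ± 13.7 in het pre-pro B cells, and 1.67 ± 0.499 and 0.357 ± 0.394 in pre-B cells, where 1 het library had no count. The adjusted p ran from 0.00702 to 0.106 over 18 alternatives and was under the threshold in 14.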

How the results depend on the processing

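The stage falls of Runx2, Mycl, Irf8 and Bcl11a were called in each genotype under all 12 alternatives, and the homo pre-B falls of Spib and Bcl11a under all 15. Of the 6 genes, the number called in pre-pro B cells, homo against WT, was 4; it was 0 with library size as a covariate, 0 with a sex term, 2 in the joint fit of 18 libraries and from 0 to 4 when a replicate was left out. For het against WT it was 0, and from 0 to 5 when a replicate was left out; for homo against het 0, with 1 by DESeq2 and from 0 to 1 when a replicate was left out. In pre-B cells, het against WT gave 0, but 2 by DESeq2, with library size as a covariate, in the joint fit and without the 2 shallowest libraries, and from 0 to 1 when a replicate was left out. Homo against het gave 0, but 1 by DESeq2, 3 with library size as a covariate, 1 in the joint fit, 1 with a sex term, 1 without the 2 shallowest libraries and from 0 to 1 when a replicate was left out. The het interaction gave 1, 2 with library size as a covariate and from 0 to 1 when a replicate was left out. With a −log10 q of at least 5, the pre-B Ikaros lists held regions at 2 (WT) and 3 (homo) of the 6 genes, beside 9.05% and 16.6% of all genes, and the thymocyte lists at 3 and 1, beside 7.36% and 15.8%. The RNA counts in this paragraph stand without the share of all genes called in the same fit, so they are not results about the 6 genes in particular. The causes of these shifts were not tested.

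Differences that changed sign were not called in the main comparison. With library size as a covariate, Runx2 was 0.000491 in homo and 0.0283 in het against WT pre-pro B, Irf8 0.00715 in pre-pro B homo against het, and in pre-B homo against WT Irf8 was 0.00761, Zeb2 −0.25, Spi1 0.0121 and Irf4 −0.0271. With a sex term these 4 pre-B values were 0.00315, −0.32, 0.0105 and −0.0497, and without the 2 shallowest libraries 0.00674, −0.26, 0.036 and −0.0557. With a replicate left out, pre-B homo against WT ran from −0.161 to 0.0106 for Irf8, −0.257 to 0.178 for Zeb2, −0.283 to 0.0403 for Spi1, −0.0518 to 0.323 for Irf4 and −0.18 to 0.131 for Id2. Zeb2 in pre-B homo against het ran from −0.476 to 0.0177, Irf4 in pre-pro B homo against WT from −0.182 to 0.0178, Runx2 in pre-pro B het against WT from −0.317 to 0.00555 and Spib between the het stages from −0.185 to 0.144.

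Correlations were taken between same-numbered replicates of different genotypes within a stage, over 9 pairs each. They ran from −0.25 to 0.0905 in pre-pro B and from −0.597 to 0.16 in pre-B cells. Libraries of the same genotype and replicate number had the same sex at both stages. Whether they came from the same animals was not tested, and the tests between stages did not pair them. With the replicate number as a block, 5 of the 6 genes were called in pre-pro B cells, homo against WT, and the other counts were as in the fit without the block. The share of all genes called with the block is not given here either. Depth limits Runx2 and Mycl in pre-B cells, where 0 to 13 counts per library carry the level.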
